A study of Homo sapiens with 4 samples.

Results

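The genes described here encode the nuclear-encoded part of the respiratory chain and ATP synthase, the 5 protein complexes of oxidative phosphorylation. They were chosen by name, with no measured value in the rule, though earlier results of these data were known. Taken were genes whose symbol begins with NDUFA, NDUFB, NDUFC, NDUFS, NDUFV, SDHA, SDHB, SDHC, SDHD, UQCR, COX4I, COX5, COX6, COX7, COX8 or ATP5, NDUFAF assembly factors and pseudogenes left out. The rule found 81 genes of 19775 with a probe set of a single symbol, and a gene was represented by the brightest such probe set. Of the 81, 33 belong to complex I, 7 to complex II, 6 to complex III, 17 to complex IV and 18 to complex V. The prefixes also take in 6 genes that encode no subunit: the complex II assembly factors SDHAF1, SDHAF2, SDHAF3 and SDHAF4, the ATP synthase inhibitor ATP5IF1, and COX7A2L, a factor that joins complexes III and IV into supercomplexes.

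RNA came from HCCLM3, a metastatic human hepatocellular carcinoma cell line, sorted magnetically for EpCAM, an epithelial adhesion molecule. EpCAM-negative cells had been transfected with 100 nM of miR-NC mimics or miR-429 mimics, and EpCAM-positive cells had been given 40 µM of Antagomir-NC or Antagomir-429, all for 4 days. Each of these 4 groups was 1 array (Affymetrix Human U133 Plus 2.0), so no difference below has a replicate check and no p-value can be given. A mimic is a synthetic duplex that supplies a microRNA and an antagomir is a cholesterol-conjugated antisense RNA that blocks one; the agent and the sorted fraction differ together between the pairs.

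Complex I passes electrons from NADH, and complex II from succinate, to coenzyme Q; complex III hands them on through cytochrome c to complex IV, which reduces oxygen. Complexes I, III and IV pump protons, and complex V (ATP synthase) uses the proton gradient to make ATP. All subunits of complex II and most of the others are encoded in the nucleus, and the remaining ones by mitochondrial DNA, whose genes were not analysed here. Liver is rich in mitochondria, and many nuclear respiratory genes are known to be controlled by the transcription factors NRF1, GABPA and YY1.

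The microRNA given or blocked is shown first, since every comparison but that of the sorts rests on it. The mature sequences are those of RefSeq (GRCh38.p14), with the seed, bases 2 to 8, in capitals. miR-429 shares its seed AAUACUG with 2 other mature human microRNAs of that table.
hsa-miR-429, chr1:1169055-1169076, plus strand: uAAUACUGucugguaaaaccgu
hsa-miR-200b-3p, chr1:1167160-1167181, plus strand: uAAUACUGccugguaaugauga
hsa-miR-200c-3p, chr12:6963742-6963764, plus strand: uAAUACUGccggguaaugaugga

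Respiratory genes are also known for shared promoter motifs, and because most of the members differed in the same direction with the mimic, their RefSeq promoters (GRCh38.p14) were searched on both strands from 250 bases before to 50 after the start. Of the 81 members, 70 had such a promoter sequence. The GABPA core CCGGAAG was found in 20 of the 70 (28.6%), against 10.7% of 27305 promoters of the same length and 18.1% of 10606 promoters of expressed genes. The YY1 core AAGATGGCG was in 7 (10.0%), against 1.85% and 3.65%. The NRF1 consensus, a palindrome, was in 4 (5.71%), against 1.36% and 2.2%. At least 1 of the 3 was in 29 of the 70 (41.4%, against 13.1% and 22.4%). These are matches of letters and not mapped binding sites. Shown are the 250 bases before the start for 3 members that carry a core, in capitals: COX5B and NDUFB7 with the GABPA core, and ATP5PF with the YY1 and GABPA cores.
COX5B, chr2:97645812-97646061, plus strand: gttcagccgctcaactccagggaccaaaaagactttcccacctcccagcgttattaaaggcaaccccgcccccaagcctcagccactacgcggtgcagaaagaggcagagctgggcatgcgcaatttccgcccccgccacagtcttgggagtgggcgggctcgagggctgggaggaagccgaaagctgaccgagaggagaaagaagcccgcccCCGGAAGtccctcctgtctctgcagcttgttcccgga
NDUFB7, chr19:14572067-14572316, minus strand: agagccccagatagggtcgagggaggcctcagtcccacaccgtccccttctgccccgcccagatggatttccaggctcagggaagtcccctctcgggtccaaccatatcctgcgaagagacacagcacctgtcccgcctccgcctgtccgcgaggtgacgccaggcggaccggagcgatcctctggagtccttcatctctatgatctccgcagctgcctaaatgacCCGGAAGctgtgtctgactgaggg
ATP5PF, chr21:25735055-25735304, minus strand: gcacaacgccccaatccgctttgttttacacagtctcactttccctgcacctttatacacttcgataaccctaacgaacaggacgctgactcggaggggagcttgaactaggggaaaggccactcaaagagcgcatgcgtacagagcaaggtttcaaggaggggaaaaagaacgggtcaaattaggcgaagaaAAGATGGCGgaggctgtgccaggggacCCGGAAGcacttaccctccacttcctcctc
The 20 expressed members with the GABPA core had a median log2 ratio of -0.35 with the mimic, and the 48 without it -0.30. The 7 with the YY1 core had -0.28 and the 61 without it -0.32, and the 4 with the NRF1 consensus -0.19 and the 64 without it -0.33. With the mimic, carriers of the GABPA core included NDUFB7 (-0.63), COX5B (-0.49), ATP5PF (-0.28), ATP5ME (-0.03), SDHAF2 (0.15) and NDUFS1 (0.30).

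Signals are MAS5 values, here on the linear scale, whose trimmed mean is 500.1 on each array. A gene was called expressed when its mean log2 signal over the 4 arrays reached the median of all non-control probe sets, a signal of 52.9, called the floor. That held for 77 of the 81 members and for 13180 of the 19775 genes, and 74 members also passed a stricter limit, the 75th percentile (a signal of 265.6). The members are bright on this array: 69 of the 77 lay in the brightest quartile of expressed genes and 52 in the brightest twentieth. Epithelial keratins of the line were bright too, KRT18 between 42723 and 50498, while the hepatocyte genes AFP (91 to 119) and APOA1 (66 to 92) were dim but above the floor on each array. ALB and KRT19 were under the floor on each array, and TTR was above it on the NC antagomir array only, at 174. EPCAM itself, the sorting marker, had 1106 on the EpCAM-negative and 1235 on the EpCAM-positive control array, so the array shows little difference between the sorted fractions in the gene used to sort them, and it had 3838 with the miR-429 mimic and 913 with antagomir-429. Of 12 leukocyte and stroma markers 10 were measured, and their summed signal was between 8369 and 11742, highest on the NC antagomir array. Most of that sum was the collagen gene COL1A1, between 7162 and 10500 and also highest on the NC antagomir array. CD3E, PECAM1, COL3A1, DCN and ACTA2 were above the floor on each array too, with signals from 55 to 476. PTPRC, which defines leukocytes, lay between 3 and 36, and CD14 between 15 and 50, both under the floor on each array. The 8 markers that reached the floor by their mean had median log2 ratios of 0.35 with the mimic, -0.50 with the antagomir and 0.35 between the sorts. The part of these markers in the members' ratios was not tested.

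Respiratory chain genes were slightly lower across complexes I, III, IV and V on the miR-429 mimic array than on the NC mimic array. The median log2 ratio over the 77 expressed members was -0.32 (1.25-fold lower), against -0.002 over all 13180 expressed genes. In all, 71 of 77 were below 0, against 50.1% of all expressed genes and 59.5% of the brightest quartile of them, and 6 above 0, against 49.9% and 40.5%. At least 1.5-fold lower were 3 members, NDUFA5, UQCRB and NDUFB7, against 10.9% of all expressed genes and 3.76% of the brightest quartile. At least 1.5-fold higher as measured was COX7B2 alone, against 14.5% and 4.83%, and since its NC mimic signal was under the floor it is bounded only at 1.32-fold. None of the 77 was at least 2-fold higher (5.25% of all expressed genes, 0.516% of the brightest quartile) or lower (3.76% and 0.091%). The middle 50% of the members' ratios lay between -0.44 and -0.15. The robust SD of log2 ratios among expressed genes of the same quartile of signal served as the yardstick (0.36 in the brightest quartile). By more than that, 33 members were lower and 1 higher, against 15.3% and 17.1% of all expressed genes. The yardstick is counted from 0, and the share of the brightest quartile beyond it is not given here. Other genes with a mean log2 signal of at least 15 had a median of -0.34.

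Other bright genes were lower on the miR-429 mimic array too. Among genes with a mean log2 signal of at least 15, the 26 members had a median of -0.38 and the 175 other genes -0.34, with 97.7% of those others below 0. In the brightest twentieth as a whole, the 52 members had -0.34 and the 607 others -0.26, with 80.9% of the others below 0. With quantile normalization, which gives the 4 arrays one distribution of signals, the members' median was -0.09 and 20 members lay above 0 in place of 6. With each array centred on its own median it was -0.43, where the median of all genes moved to -0.11. The members' median was below 0 under all 3 scalings, and its size differed between them.

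**Figure D1:**
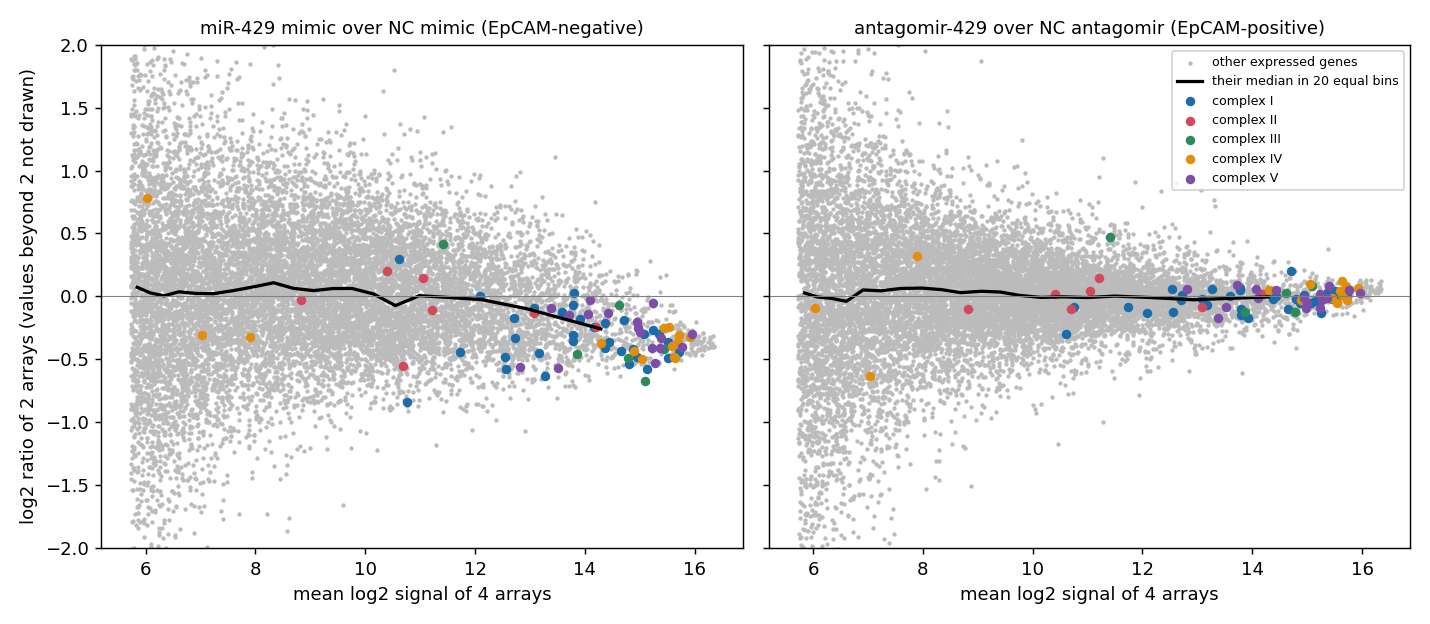
Log2 ratio between 2 arrays (vertical) against mean log2 signal of 4 arrays (horizontal) for each expressed gene, with the miR-429 mimic (left) and antagomir-429 (right). Coloured points are the 77 members by complex, grey points other genes and the black line the median of the others in 20 equal bins; at a log2 signal of 15 and above, members and others lie together below 0 on the left (-0.38 and -0.34) and near 0 on the right (0.01 and 0.02).

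Gene span, the length of the gene on the genome, moved with the ratio as well. Respiratory chain genes are short: 31 and 26 of the 77 fell in the shortest and second shortest of 5 equal bins of span. Within the brightest quartile, the 28 members of the shortest bin (median span 4.3 kb) had a median of -0.40 with the mimic and the 823 other genes -0.29. In the next bin (12.7 kb) the 26 members had -0.32 and the 811 others -0.17, and in the third (26.5 kb) the 10 members had -0.13 and the others -0.02. In each of the 5 bins the members' median lay below that of the others, though the longest bins held only 3 and 2 members. Signal was not matched within the bins. Of the 69 members in the brightest quartile, 52 lay in the brightest twentieth, against 607 of the 3226 other genes. Across the 77 members, Spearman's rho between the ratio and span was 0.38, and 0.24 across all expressed genes, given as a description since all values come from the same pair of arrays. The 3′ to 5′ ratio of the actin control probe sets, a sign of RNA or labelling quality, was 3.41 with the NC mimic, 2.63 with the miR-429 mimic, 3.12 with the NC antagomir and 3.07 with antagomir-429, lowest where the members were lowest; that of GAPDH was between 0.90 and 0.92. The part of span and RNA quality in the members' ratios was not tested.

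**Figure D2:**
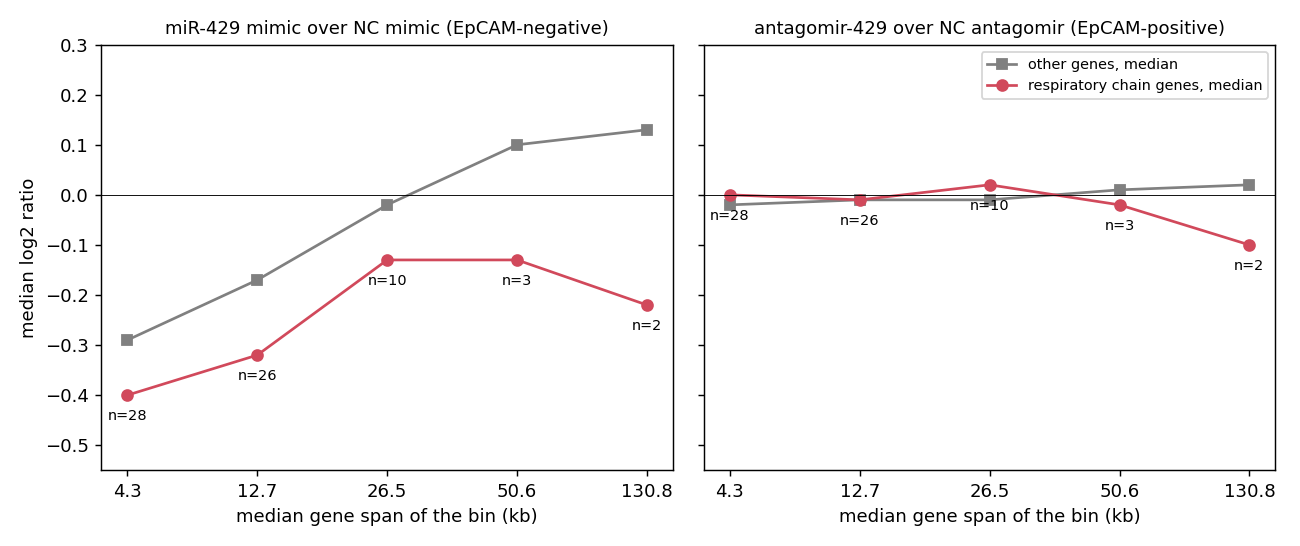
Median log2 ratio (vertical) of the brightest quartile of expressed genes in 5 bins of gene span (horizontal, median span of the bin in kb), with the miR-429 mimic (left) and antagomir-429 (right). Red points are respiratory chain genes with their number, grey squares other genes; on the left the line of the others climbs throughout from -0.29, while that of the members goes from -0.40 in the shortest bin to -0.13 in the middle one and -0.22 in the longest, and on the right both stay close to 0.

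The 4 arrays differed in order in a regular way. Of the 77 expressed members, 53 had their highest signal on the NC mimic array and 62 their lowest on the miR-429 mimic array. Both EpCAM-positive arrays lay mostly between. The share of other genes with this order is not given here. With the mimic, 97.7% of the other genes with a mean log2 signal of at least 15 were below 0. Between the sorts, 89.7% of them were. The members' median signal was 23233 with the NC mimic, 19041 with the miR-429 mimic, 21729 with the NC antagomir and 22150 with antagomir-429. The NC mimic array is the control of the mimic and also the EpCAM-negative side of the comparison of sorts, so those comparisons share its values. Set against the EpCAM-positive NC antagomir array instead, a control chosen after the data were seen, the miR-429 mimic array still had a median of -0.23, with 68 of 77 members below 0 (49.4% of all expressed genes).

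**Figure D3:**
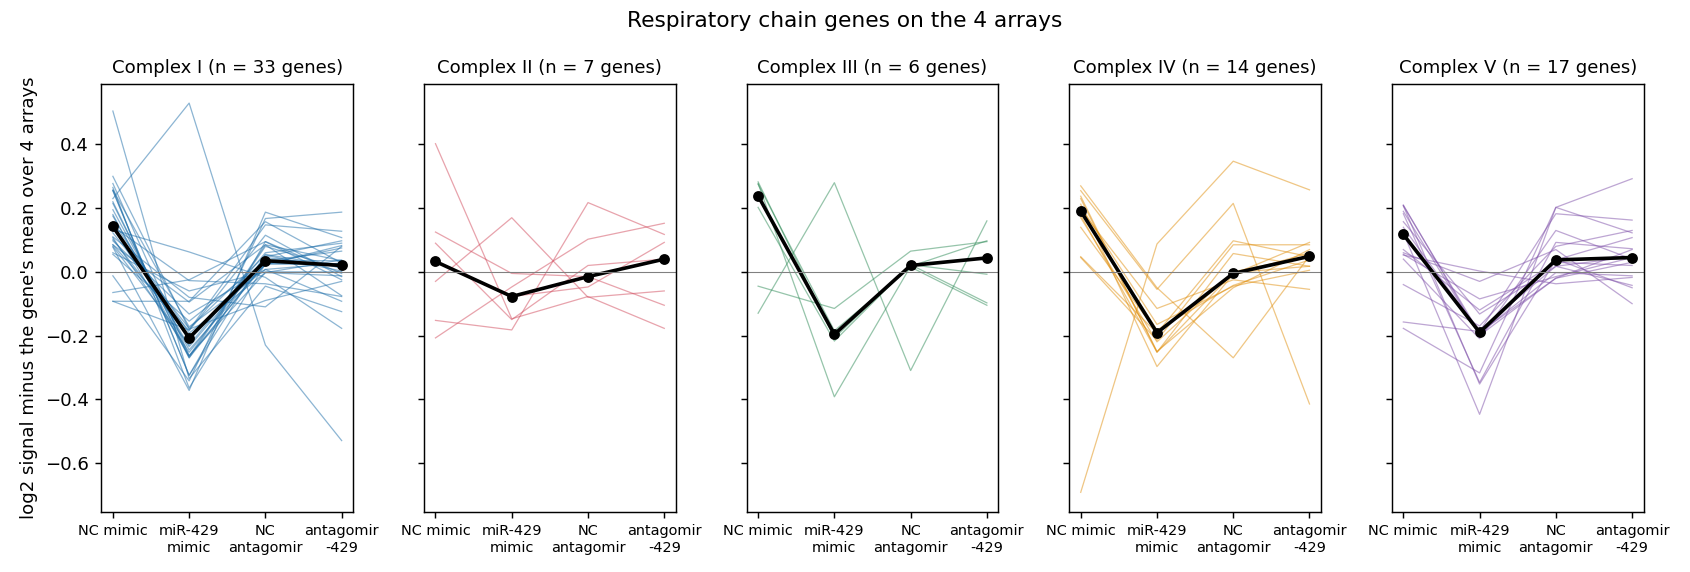
Log2 signal of each expressed member minus its own mean over the 4 arrays (vertical) on the 4 arrays (horizontal), one panel per complex; coloured lines are genes and black points the median of the complex. The miR-429 mimic array is the low point of the median line in each complex, and complex II shows the smallest dip.

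Complex I, the largest, has a flavin and iron-sulphur core that carries electrons and many accessory subunits around it. With the mimic its 33 members had a median of -0.35 (-0.15 with quantile normalization). Of these members 31 were below 0, against 50.1% of all expressed genes and 59.5% of the brightest quartile. The core subunits NDUFS1, NDUFS3, NDUFS7, NDUFV1 and NDUFV2 had a median of -0.36, and the 28 accessory subunits -0.34. NDUFV1, which binds the flavin that takes electrons from NADH, had signals of 10458 with the NC mimic, 7659 with the miR-429 mimic, 9724 with the NC antagomir and 9284 with antagomir-429. By this probe set, its brightest, the miR-429 mimic array was lowest by some way, a log2 ratio of -0.45. NDUFS7, an iron-sulphur subunit near the site of coenzyme Q, had 7207, 4833, 6459 and 5936 on the same arrays (-0.58). NDUFV2 lay close on the mimic pair, at 15546 and 14785 (-0.07). A second and dim probe set of NDUFV1 went the other way (1.99), from 52, under the floor, to 206 with the mimic. A dim second set of NDUFS7 gave -0.61.

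NDUFS1, the largest iron-sulphur subunit of the core, ran the other way. Its signals were 1836 with the NC mimic, 2256 with the miR-429 mimic, 1335 with the NC antagomir and 1082 with antagomir-429, so it was highest where most members were lowest. Its log2 ratios were 0.30 with the mimic, -0.30 with the antagomir and -0.46 between the sorts, and its ratio with the mimic was within the spread of genes of like signal (0.46). Its other probe sets past the floor gave 0.09 and 0.00 with the mimic.

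The member with the lowest ratio was NDUFA5, an accessory subunit of the arm that extends into the mitochondrial matrix. It had 2447 with the NC mimic, 1370 with the miR-429 mimic, 1677 with the NC antagomir and 1589 with antagomir-429 (-0.84 with the mimic). It was the NC mimic array that stood apart there, since NDUFA5 was also lower on the EpCAM-positive control (-0.54), and the spread of genes of like signal was 0.46. NDUFB7, of the arm embedded in the membrane, had 11899, 7671, 10051 and 10468 in the same order (-0.63), the miR-429 mimic array being lowest; a second and dimmer probe set gave -0.10. NDUFA13, a membrane-arm subunit also known as GRIM-19, had -0.58. At the other end, NDUFB6 had 0.03 and NDUFA10 0.00. NDUFS4, an accessory subunit of the matrix arm and a known Leigh syndrome gene, had -0.44.

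Complex II, succinate dehydrogenase, is also an enzyme of the citric acid cycle. Its 7 members by prefix had a median of -0.11 with the mimic, the nearest to 0 of the 5 complexes, though not with quantile normalization (-0.10, against -0.03 for complex V), and the subunits SDHA, SDHC and SDHD, taken alone, -0.13. The flavoprotein SDHA had 20039 with the NC mimic, 16911 with the miR-429 mimic, 19030 with the NC antagomir and 19299 with antagomir-429 (-0.24). The membrane anchors SDHC and SDHD had -0.13 and -0.11. These values lie within the spread of single genes of like signal (0.36 in the brightest quartile). The assembly factors divided: SDHAF1, which helps to insert iron-sulphur clusters, had -0.55, SDHAF3 -0.03, SDHAF2, which attaches the flavin, 0.15, and SDHAF4 0.20. SDHAF1's second probe set gave -0.07.

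Of the 6 members of complex III, 5 were below 0 with the mimic (50.1% of all expressed genes, 59.5% of the brightest quartile). Complex III had the lowest median of the 5 complexes with the mimic, -0.44. It was not the lowest with the EpCAM-positive control array in place of the NC mimic array (-0.22, against -0.26 for complex I and -0.24 for IV) or with the median over a gene's probe sets (-0.30, against -0.35 and -0.31). With quantile normalization it was -0.19. UQCRB, a small subunit that is needed for assembly of the complex, had 42484 with the NC mimic, 26614 with the miR-429 mimic, 35421 with the NC antagomir and 37334 with antagomir-429 (-0.67). The miR-429 mimic array was well below the other three, and its 2 other probe sets past the floor gave -0.81 and -0.79. The core protein UQCRC1 had -0.46, UQCR11 -0.49 and UQCRQ -0.42, whereas UQCR10 had -0.07. Dimmer second probe sets of UQCR11 and UQCR10 gave 0.11 and 0.19.

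The exception was UQCRC2, the other core protein, which was higher with either agent. Its signals were 2480 with the NC mimic, 3307 with the miR-429 mimic, 2192 with the NC antagomir and 3034 with antagomir-429. Both treated arrays lay above both control arrays, with log2 ratios of 0.42 and 0.47, beyond the spread of genes of like signal (0.36 and 0.15). A second probe set gave 0.65 and 0.71 in the same directions.

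Complex IV, cytochrome c oxidase, has several subunits that come in tissue-specific isoforms. With the mimic, 13 of its 14 expressed members were below 0 (50.1% of all expressed genes, 59.5% of the brightest quartile). The median was -0.34 (-0.10 with quantile normalization). The 10 subunits of the common isoforms ranged from -0.50 to -0.24. COX8A had 39131 with the NC mimic, 27616 with the miR-429 mimic, 33669 with the NC antagomir and 36072 with antagomir-429 (-0.50), and COX5B 60365, 43014, 51113 and 51642 (-0.49). Both were lowest on the miR-429 mimic array and highest on the NC mimic array. COX4I1, the common form of the regulatory subunit, had -0.36 and COX6A1 -0.32 (0.05 with quantile normalization). COX6B1 had -0.43, COX7A2 -0.39, COX7B -0.48 and the supercomplex factor COX7A2L -0.37. Other probe sets past the floor differed: those of COX5B gave -0.44, -0.52 and -1.14, and those of COX4I1 -0.37 and, from a dim set, 0.54. A dim second set of COX7B gave 1.54.

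The isoforms of lung, muscle, heart and testis were dim or under the floor. COX4I2, the lung form, had signals from 198 to 288, and COX6A2, of heart and muscle, from 98 to 156. COX7A1, of heart and muscle, had at most 12 and COX8C at most 43, neither reaching the floor on any array. COX6B2, a testis form, was above the floor with the NC mimic and NC antagomir only, at 63 and 59, and had 31 with the miR-429 mimic and 26 with antagomir-429. COX7B2, another testis form, had 40 with the NC mimic, 70 with the miR-429 mimic, 83 with the NC antagomir and 78 with antagomir-429. Its NC mimic value lay under the floor, so it was at least 1.32-fold higher with the mimic. The gene once named NDUFA4L2, now COXFA4L2, falls outside the name rule and lay under the floor on 3 of 4 arrays, with 59 on the antagomir-429 array.

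In complex V, every one of the 17 expressed members was below 0 with the mimic. So were 50.1% of all expressed genes, 59.5% of the brightest quartile, and 86.8% of other genes with a mean log2 signal of at least 14. The median of complex V was -0.28, and -0.03 with quantile normalization. The c subunits, which form the ring that turns in the membrane, are encoded by 3 genes whose mature protein is the same, and their median of -0.53 was below that of the other groups of the complex, although the single gene ATP5F1D (-0.56) lay below ATP5MC2 and ATP5MC3. ATP5MC1 had 12743 with the NC mimic, 8603 with the miR-429 mimic, 13489 with the NC antagomir and 12794 with antagomir-429 (-0.57). ATP5MC2 had 44667, 30968, 42151 and 41344 (-0.53), and ATP5MC3 44318, 33374, 39541 and 37100 (-0.41). For each of the 3 genes the miR-429 mimic array was lowest, and for ATP5MC1 and ATP5MC2 the other three lay close together.

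In the catalytic F1 part, the alpha subunit ATP5F1A had -0.05 and the beta subunit ATP5F1B -0.41, although the complex holds equal numbers of both proteins. ATP5F1B had 49108 with the NC mimic, 37084 with the miR-429 mimic, 42400 with the NC antagomir and 42007 with antagomir-429, whereas ATP5F1A stayed between 37645 and 39965. ATP5F1D, of the central stalk, had -0.56. The peripheral stalk (ATP5PO, ATP5PB, ATP5PD and ATP5PF), which holds the catalytic part still, had a median of -0.17, and the small membrane subunits ATP5ME, ATP5MG, ATP5MJ and ATP5MK -0.29, with ATP5ME at -0.03. The inhibitor ATP5IF1, which blocks the enzyme from running backwards, had -0.09. ATP5MF was represented by a dim probe set that did not reach the floor (16 to 47).

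**Figure D4:**
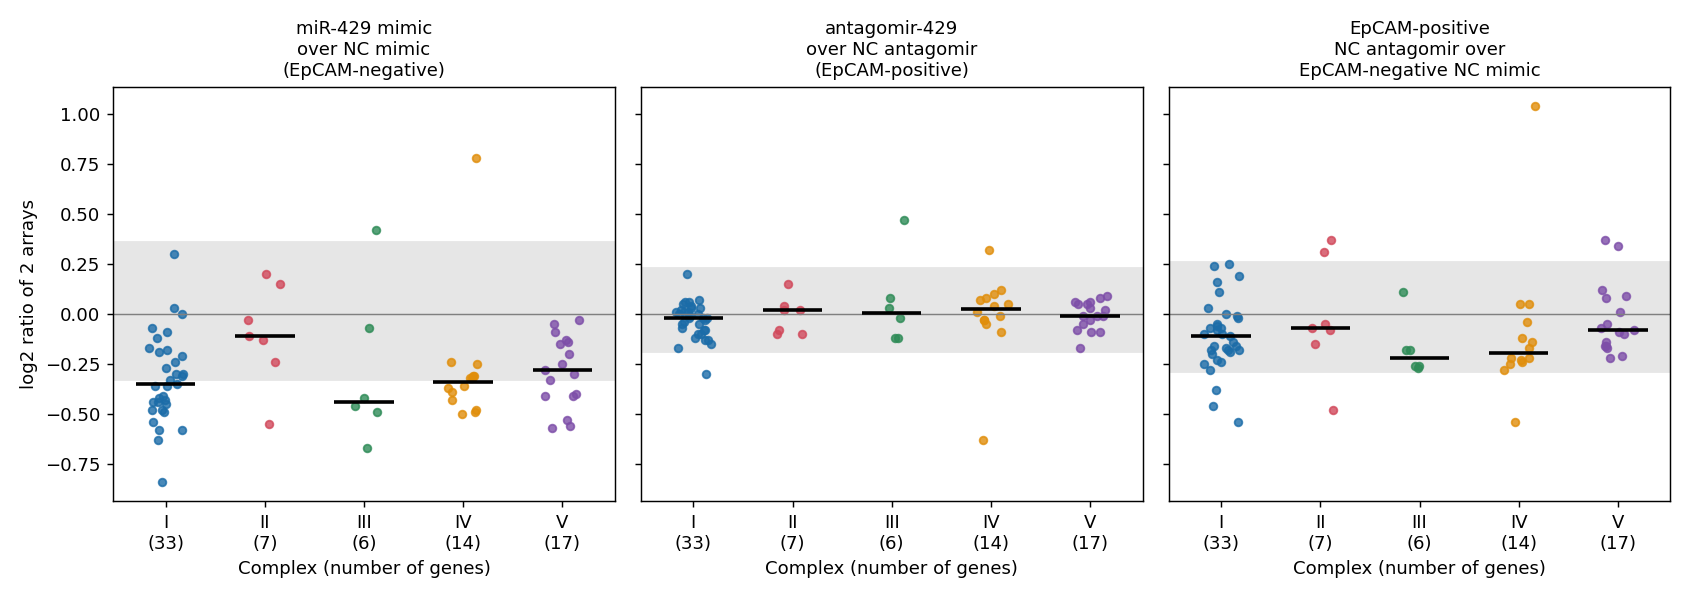
Log2 ratio between 2 arrays (vertical) for each expressed member, by complex (horizontal), in the 3 comparisons; black bars are medians and the grey band holds the middle 50% of all expressed genes. With the mimic, complexes I, III, IV and V have medians between -0.44 and -0.28 and complex II -0.11; with the antagomir all 5 medians lie between -0.02 and 0.03.

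With antagomir-429 in EpCAM-positive cells the respiratory chain genes hardly differed. The median over the 77 expressed members was -0.01, against 0.007 over all expressed genes, with 37 above 0 (51.0% of all expressed genes, 47.9% of the brightest quartile) and 40 below 0 (49.0% and 52.1%). The complex medians were -0.02 for I, 0.02 for II, 0.01 for III, 0.03 for IV and -0.01 for V, and median centring turned those of II, III and IV to -0.02, -0.03 and -0.01. In all, 73 of 77 members (94.8%) lay within 0.2 log2 units of 0, against 47.8% of all expressed genes and 78.1% of the brightest quartile. None was at least 2-fold higher (3.72% of all expressed genes, 0.0303% of the brightest quartile) or lower (3.53% and 0.0%). At least 1.5-fold higher were 0 members (9.35% and 0.577%), and 1 was at least 1.5-fold lower (8.29% and 0.364%).

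That member was COX6A2, dim at 152 with the NC antagomir and 98 with antagomir-429 (-0.63), where genes of like signal had a spread of 0.79 in their quartile. Beyond the spread of genes of like signal were 2 members that were higher, UQCRC2 (0.47) and NDUFAB1 (0.20), the mitochondrial acyl carrier protein, against 17.5% of all expressed genes. Another 4 were lower, NDUFS1 (-0.30), ATP5IF1 (-0.17), NDUFA6 (-0.17) and NDUFV2 (-0.15), against 15.3%. ATP5IF1 had 11202 with the NC antagomir and 9943 with antagomir-429, and its 2 other probe sets gave -0.39 each. A dimmer probe set of NDUFA6 gave 0.10, and the other sets of NDUFS1 past the floor gave -0.50 and 0.07. NDUFAB1 had 24749 and 28393.

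Between the sorts, respiratory chain genes were a little lower on the EpCAM-positive NC antagomir array than on the EpCAM-negative NC mimic array. The median was -0.12, against -0.021 over all expressed genes, and 59 of 77 were below 0, against 52.2% of all expressed genes and 53.9% of the brightest quartile; 18 were above 0 (47.8% and 46.1%). As with the mimic, other bright genes did likewise: at a mean log2 signal of at least 15, the median was -0.17 for the 26 members and -0.17 for the 175 others. Quantile normalization brought the members' median to -0.02, with 31 above 0 in place of 18, and that of complex V from -0.08 to 0.04. Complex medians were -0.11 for I, -0.07 for II, -0.22 for III and -0.19 for IV. The sorts also differed in agent, mimic against antagomir, and the effects of sort and agent cannot be told apart.

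A single member was at least 2-fold higher as measured, the dim COX7B2 (1.04; 3.62% of all expressed genes and 0.121% of the brightest quartile), which is at least 1.58-fold against the floor, and none was at least 2-fold lower (4.7% and 0.182%). The same gene was the only one past 1.5-fold in either direction, where 10.3% of all expressed genes (2.52% of the brightest quartile) were higher and 12.0% (1.91%) lower by that much. Beyond the spread of genes of like signal were 6 members that were higher (16.2%) and 14 that were lower (16.9%). Apart from it, the stalk subunit ATP5PB had 11942 on the EpCAM-negative and 15454 on the EpCAM-positive control array (0.37) and ATP5ME 15689 and 19836 (0.34). Their EpCAM-positive values were matched by the antagomir-429 array, at 16483 and 19665, so both EpCAM-positive arrays lay above both EpCAM-negative ones for these genes. On the lower side were NDUFA5 (-0.54), COX4I2 (-0.54), SDHAF1 (-0.48) and NDUFS1 (-0.46).

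Probe sets and pseudogenes bear on how far single members can be read. RefSeq lists 203 pseudogenes under the same prefixes, and 6 of the 77 expressed members were measured by probe sets ending in x_at, whose probes can bind other sequences, and 36 by sets ending in s_at, shared by several transcripts. With the mimic, medians were -0.25 for the 6, -0.38 for the 36 and -0.31 for the 35 with gene-specific sets, so the direction was the same in all of them. A further 36 probe sets of 25 members passed the stricter limit without being the brightest, and 27 of these were below 0 with the mimic (median -0.23). With the floor as the limit, 36 of 55 such probe sets of 38 members were below 0. Their median was -0.18, with ratios from -1.42 to 2.16. Of all expressed genes, by their brightest probe sets, 50.1% were below 0. Probe sets that name several genes were left out, 10 of which included a gene of these families.

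Related genes outside the name rule were mixed. Cytochrome c1 (CYC1), the complex III subunit outside the name rule, had 36410 with the NC mimic and 27820 with the miR-429 mimic (-0.39), and cytochrome c (CYCS) 23297 and 17543 (-0.41). The carriers and pores of ATP, phosphate and metabolites had a median of -0.26 over 8 genes, with 7 below 0 (0.05 with quantile normalization), among them the phosphate carrier SLC25A3 (-0.27) and the adenine nucleotide carrier SLC25A5 (-0.25); the outer membrane pores VDAC1 and VDAC2, as bright as many members, had -0.05 and -0.03. Assembly factors, which build the complexes but do not stay in them, had -0.11 over 48 expressed genes, with 31 below 0. For both lists the shares below 0 to compare are 50.1% of all expressed genes and 59.5% of the brightest quartile. The citric acid cycle had 0.05 over 11 genes (-0.06 with median centring), coenzyme Q synthesis 0.13 over 13, and the machinery of mitochondrial DNA 0.01 over 15 (-0.09 with median centring). None of the expressed genes in these 6 lists was at least 2-fold higher or lower with the mimic (5.25% and 3.76% of all expressed genes).

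Nuclear regulators of respiratory genes had a median of 0.32 over 12 expressed genes, with 9 above 0 (49.9% of all expressed genes). As measured, 3 were at least 2-fold higher (5.25% of all expressed genes), HCFC1, PPARA and PPARGC1A, the last with a control signal under the floor. HCFC1, a chromatin-bound coregulator, had 213 with the NC mimic, 568 with the miR-429 mimic, 738 with the NC antagomir and 657 with antagomir-429, so the NC mimic array alone was low. PPARA, a nuclear receptor of fatty acid oxidation, had 76, 198, 75 and 142 in that order, and the coactivator PPARGC1A 48, 100, 39 and 81. Both were dim and higher on each treated array than on its control, PPARGC1A by at least 1.9-fold with the mimic and at least 1.53-fold with the antagomir against the floor. With the antagomir the regulators had a median of 0.05 (-0.05 under the stricter limit), and the assembly factors -0.02. In coenzyme Q synthesis, COQ8B was the only gene past 2-fold there, with 223 on the NC antagomir array and between 556 and 813 on the other three. Among the carriers, UCP3, a dim mitochondrial carrier named as an uncoupling protein, had 107 with the NC antagomir and 53 with antagomir-429.

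**Figure D5:**
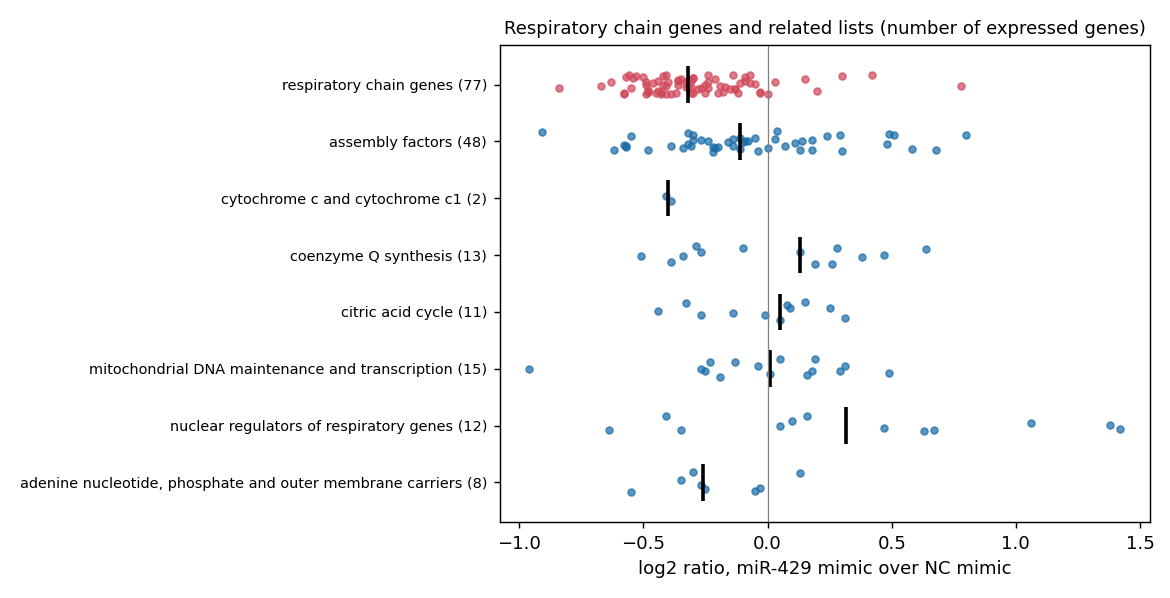
Log2 signal on the miR-429 mimic array minus that on its NC control (horizontal) for expressed genes of each list (vertical, number of genes in brackets); black bars are medians. Respiratory chain genes (-0.32), cytochromes c and c1 (-0.40) and carriers (-0.26) lie to the left of 0, and the regulators (0.32) to the right.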

How the data were processed

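Total RNA of 4 sorted HCCLM3 samples, 1 array each, was analysed. The files hold 1 log2 value per probe set as deposited; the submitters' processing notes name the MAS5 algorithm, and its version is not given in the sources used here. Back on the linear scale, the trimmed mean was 500.1 on each array, and the values were used with no further scaling. Platform annotation gave 1 symbol for 41091 non-control probe sets and several for 1801, and left 11777 unnamed, controls included; RefSeq (GRCh38.p14) matched the gene identifiers of all but 54 single-symbol sets and gave gene types and spans. It served to leave out 2 pseudogenes and 3 non-coding genes from the prefixes. Members and lists were chosen with earlier results of these data known. A log2 ratio is the difference of 2 arrays with no offset; where the lower signal did not reach the floor, the fold was computed with the floor in its place. Named are members past 2-fold, the extremes of each complex, core subunits, isoforms and non-subunits; any others were chosen after their values were seen. Robust SDs are scaled median absolute deviations. Other settings tried were quantile normalization, median centring, no filter or the stricter one, 16 signal units added before log2, the median over a gene's probe sets, subunits only and another control array. Python 3.11.15, pandas 2.3.3 and SciPy 1.17.1 were used, and the code was checked on simulated data; the medians themselves have no test. The number of arrays limits the precision.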

Additional observations from a re-analysis of the deposited data

How the results depend on the processing

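The members' median with the mimic stayed below 0 under each alternative, from -0.43 with median centring to -0.09 with quantile normalization. Median centring gave -0.46, -0.22, -0.55, -0.45 and -0.39 for complexes I to V, and 17 members at least 1.5-fold lower in place of 3. Quantile normalization gave -0.15, -0.10, -0.19, -0.10 and -0.03 for I to V, with 1 member at least 1.5-fold lower and 20 above 0. With the EpCAM-positive control, chosen after the data were seen, complex III had -0.22 and complex IV -0.24, with 2 members at least 1.5-fold higher and 1 lower. The median over probe sets, which lets in dim sets, gave -0.21 for complex II and -0.30 for III, with 13 members above 0, 4 at least 2-fold lower, and 2 higher and 9 lower by 1.5-fold. Unfiltered, 81 members gave 1 at least 2-fold higher and 2 lower, and 2 higher and 5 lower by 1.5-fold; the stricter filter left 0 at least 1.5-fold higher.

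With the antagomir, where medians lie near 0, signs turned with median centring for complexes II (-0.02), III (-0.03) and IV (-0.01), with no filter for IV (-0.01) and V (0.01), with the median over probe sets for III (-0.02) and with subunits only for V (0.01). Median centring left 23 members above 0. Members at least 1.5-fold lower numbered 0 with the offset or the stricter filter. Unfiltered, 1 was at least 2-fold higher and 3 lower, and 1 higher and 4 lower by 1.5-fold. With the median over probe sets these counts were 1 and 4, and 1 and 7.

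Between the sorts, quantile normalization gave a median of -0.02, with -0.02 for complex IV, 0.04 for V and 31 members above 0. COX7B2 was past 2-fold under neither the offset nor the stricter filter (0 members), and 0 were past 1.5-fold higher under the latter. Unfiltered, 3 were at least 2-fold higher and 1 lower, and 3 and 1 by 1.5-fold; with the median over probe sets, 2 and 2, and 3 and 3.

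Of the related lists, signs turned with median centring for the citric acid cycle (-0.06 with the mimic, -0.01 with the antagomir) and mitochondrial DNA genes (-0.09), with quantile normalization for the carriers (0.05 with the mimic, 0.01 between sorts), and with the median over probe sets for mitochondrial DNA genes with the mimic (-0.01), carriers with the antagomir (-0.08) and cytochromes between sorts (0.10). Without a filter mitochondrial DNA genes had 0.02 between sorts, and with the stricter filter the regulators had -0.05 with the antagomir. The cause of these shifts was not tested. No paired analysis was possible because each group has 1 array. With 1 array a group, differences of the size seen here have no measured error.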
